A study of Homo sapiens with 12 samples.

Results

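The cadherin and protocadherin genes were taken from the expression table by name, as every gene named CDH followed by digits alone and every gene whose name starts with PCDH. The rule used no measured value and gave 89 of the 19973 genes in the table. They were 23 CDH genes, 13 protocadherins outside the gene clusters and 53 clustered protocadherins, of which 15 were PCDHA, 16 PCDHB and 22 PCDHG genes. Among the CDH genes, 5 encode type I classical cadherins (CDH1, CDH2, CDH3, CDH4 and CDH15), 13 encode type II classical cadherins and 5 are neither (CDH13, CDH16, CDH17, CDH23 and CDH26).

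RNA sequencing covered 4 groups, each with 3 libraries, in a study of ARv7, a splice variant found in prostate cancer, and the DNA damage response. C4-2 ARv7 cells carried a lentivirus expressing ARv7, and C4-2 control cells carried the matching control lentivirus. 22Rv-1 shARv7 cells carried a lentiviral short hairpin RNA against ARv7, and 22Rv-1 shcontrol cells carried a control hairpin. C4-2 descends from LNCaP, a line from a lymph node metastasis of prostate cancer, and grows without androgen. 22Rv-1 comes from a relapsed CWR22 prostate cancer xenograft. All 4 groups were puromycin-selected lines grown in RPMI medium with fetal bovine serum, and the 3 libraries of a group came from 3 dishes. How many lines were selected per group was not given in the sources used here. The p-values therefore measure the spread between dishes, and the change in ARv7 cannot be told apart from any other difference between the selected lines.

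Cadherins are membrane proteins that hold cells together by binding, in the presence of calcium, to cadherins of neighbouring cells. Classical cadherins bind catenins inside the cell, which tie them to actin, and CDH1 (E-cadherin) is the main one of prostate luminal epithelium. Clustered protocadherins lie in 3 neighbouring clusters on chromosome 5 and are best known from neurons, where each cell uses a few of many alternative promoters and so carries its own surface code. Each PCDHA and PCDHG promoter drives a variable exon that is spliced to exons shared by its cluster, whereas PCDHB genes have no shared exons. Most of these promoters hold a short conserved box near the start of transcription and are bound by CTCF, which with cohesin brings promoters and distant enhancers together.

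Promoter stretches of 10 genes are shown because the box is what the clustered genes share at the start of transcription, while expression of these genes differed between the groups. Each runs 60 bases, 5′ to 3′ on the plus strand of chromosome 5 (RefSeq, GRCh38.p14), with the core of the box in capitals.
PCDHA6 (chr5:140827885-140827944): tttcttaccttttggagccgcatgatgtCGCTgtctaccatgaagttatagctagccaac
PCDHA8 (chr5:140841118-140841177): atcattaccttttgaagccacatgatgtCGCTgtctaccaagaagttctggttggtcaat
PCDHA12 (chr5:140875232-140875291): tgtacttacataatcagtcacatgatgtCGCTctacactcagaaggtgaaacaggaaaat
PCDHB7 (chr5:141172554-141172613): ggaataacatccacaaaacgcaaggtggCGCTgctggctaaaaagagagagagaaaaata
PCDHB9 (chr5:141187062-141187121): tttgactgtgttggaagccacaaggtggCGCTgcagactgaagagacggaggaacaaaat
PCDHB12 (chr5:141208631-141208690): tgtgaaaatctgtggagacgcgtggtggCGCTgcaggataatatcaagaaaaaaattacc
PCDHGA2 (chr5:141338691-141338750): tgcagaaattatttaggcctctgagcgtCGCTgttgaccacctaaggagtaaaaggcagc
PCDHGA3 (chr5:141343755-141343814): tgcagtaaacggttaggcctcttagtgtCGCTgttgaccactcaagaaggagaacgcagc
PCDHGB1 (chr5:141350013-141350072): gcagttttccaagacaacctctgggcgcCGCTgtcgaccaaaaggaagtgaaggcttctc
PCDHGC3 (chr5:141475868-141475927): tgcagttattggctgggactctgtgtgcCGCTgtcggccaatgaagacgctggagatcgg

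A promoter in the RefSeq table, 250 bases before to 50 after the start, was found for 70 of the 89 genes, 47 of them clustered. The core with 2 more positions, GNCGCT, stood in the sense direction 100 to 30 bases before the start in 41 of the 47 clustered promoters, or 87.2%, against 10.8% of all 27305 promoters in the table. The core alone, CGCT, stood there in 91.5% of the clustered promoters and in 25.3% of all promoters. On either strand of the whole promoter, CGCT stood in 97.9% of the clustered promoters and in 71.9% of all promoters. GNCGCT stood there in 95.7% and 48.0%. The letters before the core differed by cluster: TGTCGCT stood in 10 of 13 PCDHA promoters, TGGCGCT in 11 of 14 PCDHB promoters, and GNGCCGCT in 13 of 20 PCDHG promoters. Among all promoters these stood in 0.289%, 0.751% and 1.41%. The 6-letter form and the 3 longer forms, which contain it or the core, were chosen after the sequences had been seen. The plan named CGCT on both strands of the whole promoter, and did not set the sense direction or the stretch of 100 to 30 bases. The median position of the core was 55 bases before the start in PCDHA, 63 in PCDHB and 60 in PCDHG genes.

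**Figure D1:**
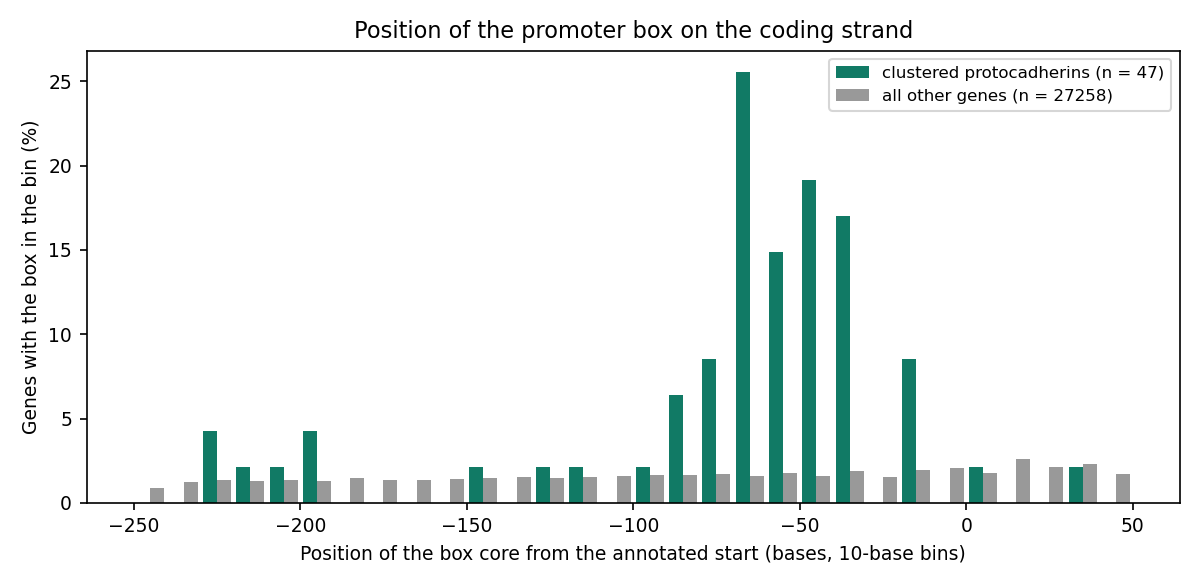
Percent of genes whose promoter holds the box in the sense direction, by position of its core in bins of 10 bases, with 0 at the start of transcription, for 47 clustered protocadherins and for all other genes in the promoter table. The clustered genes have a peak before the start, within the stretch from 100 to 30 bases, and the other genes have none of that height.

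The E-box CAGGTG, on either strand, stood in 8.51% of the clustered promoters and in 24.1% of all promoters. These matches describe the letters in this window only.

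Total counts were 12318529 to 14672948 per library, so that 3 counts were worth 0.204 to 0.244 CPM (counts scaled to a common library total, here normalised by TMM within a cell line). The summed level of 14 prostate luminal markers was at least 4531 CPM in every library. In C4-2 control, library 3 stood apart: chi-square per degree of freedom was 13.0 and 7.15 against libraries 1 and 2, which gave 3.77 between themselves, and pairs in the other groups gave 2.12 to 4.77. No pair of libraries agreed within sampling noise.

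A mean of at least 1 CPM was reached by 34 of the 89 genes in C4-2 ARv7, 31 in C4-2 control, 66 in 22Rv-1 shARv7 and 64 in 22Rv-1 shcontrol. CDH9, CDH11, CDH20 and PCDHA1 had 0 counts in all 12 libraries. Another 13 genes had a mean under 1 CPM in every group and were not called in a cell line: CDH5, CDH8, CDH13, CDH16, CDH19, CDH22, PCDHB1, PCDHGA12, PCDH8, PCDH10, PCDH15, PCDH18 and PCDH20. The filter on low counts left 11 of these untested in both lines. Without the filter, 2 of them were called in 22Rv-1. PCDH10 had 30 counts in 22Rv-1 shARv7 and 3 in 22Rv-1 shcontrol, a ratio of 10.6 (exact 95% counting interval 3.28 to 54.1; edgeR adjusted p = 0.00303), and PCDH18 had 9 counts in 22Rv-1 shARv7 and 35 in 22Rv-1 shcontrol (edgeR adjusted p = 0.0320).

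Depletion of ARv7 in 22Rv-1 went with lower clustered protocadherins throughout the 3 clusters, and with higher PCDH19, CDH12 and CDH17. Filtering on low counts left 70 of the 89 genes to test. With edgeR's quasi-likelihood test and Benjamini-Hochberg adjustment over 13459 genes, 5 rose, 42 fell and 23 did not pass the threshold of adjusted p under 0.05. Of all genes tested, 48.0% passed, 23.9% higher and 24.1% lower. Among the 50 clustered genes tested, 38 fell and 0 rose, and 0 were higher at an unadjusted p under 0.05 in this test or in DESeq2. Their median log2 fold change was -0.72, against 0.01 for all genes tested. In bulk libraries, fewer cells that express a gene and less of its RNA per cell cannot be told apart.

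E-cadherin was the most abundant of the 89 genes per length in 22Rv-1, at a mean of 69.2 FPKM (counts per length and total) in 22Rv-1 shARv7 and 58.5 FPKM in 22Rv-1 shcontrol. CDH1 (chromosome 16, 68737292 to 68835541) had 411, 412 and 424 CPM in 22Rv-1 shARv7, against 362, 354 and 374 CPM in 22Rv-1 shcontrol. All 3 depleted libraries lay above the controls, and CDH1 rose by a log2 fold change of 0.20 ± 0.04 (SE; edgeR adjusted p = 0.000174). CDH3 (P-cadherin, a type I cadherin of basal epithelium) averaged 79.2 ± 1.03 CPM in 22Rv-1 shARv7 and 85.1 ± 2.55 CPM in 22Rv-1 shcontrol (SD, n = 3 each), a log2 fold change of -0.10 ± 0.06 that did not pass the threshold (edgeR adjusted p = 0.170). CDH2 (N-cadherin) averaged 1.11 ± 0.0818 CPM in 22Rv-1 shARv7 and 0.612 ± 0.365 CPM in 22Rv-1 shcontrol (SD, n = 3 each) and did not pass. CDH4 (R-cadherin) did not pass, with a log2 fold change of 0.09.

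Type II cadherins moved in both directions. CDH12 (chromosome 5, 21750673 to 22853344), a brain cadherin, had 8.14, 7.19 and 5.99 CPM in 22Rv-1 shARv7, against 0.851, 0.620 and 0.694 CPM in 22Rv-1 shcontrol. Every depleted library was far above every control, and the log2 fold change was 3.28 ± 0.29 (SE; edgeR adjusted p = 2.33e-16), from 287 counts against 30. CDH18 (chromosome 5, 19471296 to 20575873), a related type II cadherin, went the other way. It had 3.47, 2.98 and 3.81 CPM in 22Rv-1 shARv7, against 9.01, 8.21 and 8.60 CPM in 22Rv-1 shcontrol. The groups did not overlap, and CDH18 fell with a log2 fold change of -1.33 ± 0.19 (SE; edgeR adjusted p = 1.63e-08). CDH6 (K-cadherin, known from kidney epithelium; chromosome 5, 31193686 to 31329146) had 129.8, 143 and 128 CPM in 22Rv-1 shARv7, against 124, 110.1 and 119 CPM in 22Rv-1 shcontrol. Its groups lay close without overlap, and it rose by 0.18 ± 0.06 on the log2 scale (SE; edgeR adjusted p = 0.00744). That call was lost without shARv7 library 2 or shcontrol library 2, at a log2 fold change of 0.13 each. CDH7 (chromosome 18, 65750252 to 65890337) averaged 17.0 ± 0.178 CPM in 22Rv-1 shARv7 and 26.4 ± 1.53 CPM in 22Rv-1 shcontrol (SD, n = 3 each) and fell, with a log2 fold change of -0.64 ± 0.10 (SE; edgeR adjusted p = 2.05e-07). CDH24 had 46.4, 39.8 and 48.4 CPM in 22Rv-1 shARv7, against 55.0, 51.0 and 46.6 CPM in 22Rv-1 shcontrol, and did not pass (edgeR adjusted p = 0.0524). CDH10 averaged 1.19 ± 0.229 CPM in 22Rv-1 shARv7 and 0.703 ± 0.675 CPM in 22Rv-1 shcontrol (SD, n = 3 each) and did not pass, but did without shcontrol library 3, at a log2 fold change of 1.80.

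Among the remaining cadherins, CDH17 (liver-intestine cadherin; chromosome 8, 94127162 to 94217303) had 12.4, 14.3 and 11.8 CPM in 22Rv-1 shARv7, against 7.38, 5.97 and 8.67 CPM in 22Rv-1 shcontrol. The groups were apart, and CDH17 rose by 0.80 ± 0.15 on the log2 scale (SE; edgeR adjusted p = 5.53e-06). CDH23 (chromosome 10, 71396920 to 71815947), a tip-link protein of inner ear hair cells, had 15.1, 16.1 and 13.6 CPM in 22Rv-1 shARv7, against 30.9, 31.5 and 33.6 CPM in 22Rv-1 shcontrol. It was lower in every depleted library, with a log2 fold change of -1.10 ± 0.10 (SE; edgeR adjusted p = 1.5e-15).

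Among protocadherins outside the clusters, the X-linked PCDH19 (100291644 to 100410273), in which mutations cause an epilepsy, stood apart. It had 10.3, 9.25 and 14.2 CPM in 22Rv-1 shARv7, against 0.0709, 0.465 and 0 CPM in 22Rv-1 shcontrol. Each depleted library lay far above the controls, which held 7 counts together against 459, a count ratio of 69.2 with an exact 95% counting interval of 33.3 to 173. The fitted log2 fold change was 5.98 ± 0.35 (SE; edgeR adjusted p = 3.12e-25). It was 8.0 without shcontrol library 2 and 5.39 without shcontrol library 3, since so few control counts set it. PCDH19 passed the filter on low counts through the 22Rv-1 shARv7 group alone.

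PCDH7 (chromosome 4, 30720415 to 31146805), known to bind the SET protein inside the cell, had 37.1, 36.8 and 37.7 CPM in 22Rv-1 shARv7, against 40.6, 40.8 and 49.0 CPM in 22Rv-1 shcontrol. Library 3 of the control was the highest, and the log2 fold change of -0.23 ± 0.08 (SE; edgeR adjusted p = 0.0190) did not pass without it, at -0.13, or without shARv7 library 2, at -0.22. PCDH1, an airway epithelial protocadherin, had 33.1, 32.7 and 33.4 CPM in 22Rv-1 shARv7, against 39.2, 37.1 and 35.0 CPM in 22Rv-1 shcontrol, and did not pass (edgeR adjusted p = 0.0991). PCDH9, PCDH11X, PCDH12 and PCDH17 did not pass either, with log2 fold changes of -0.22, 0.20, 0.35 and 0.68. PCDH11X has a near-identical Y-linked copy, PCDH11Y, which also did not pass, and reads of the pair may have been split between them.

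**Figure D2:**
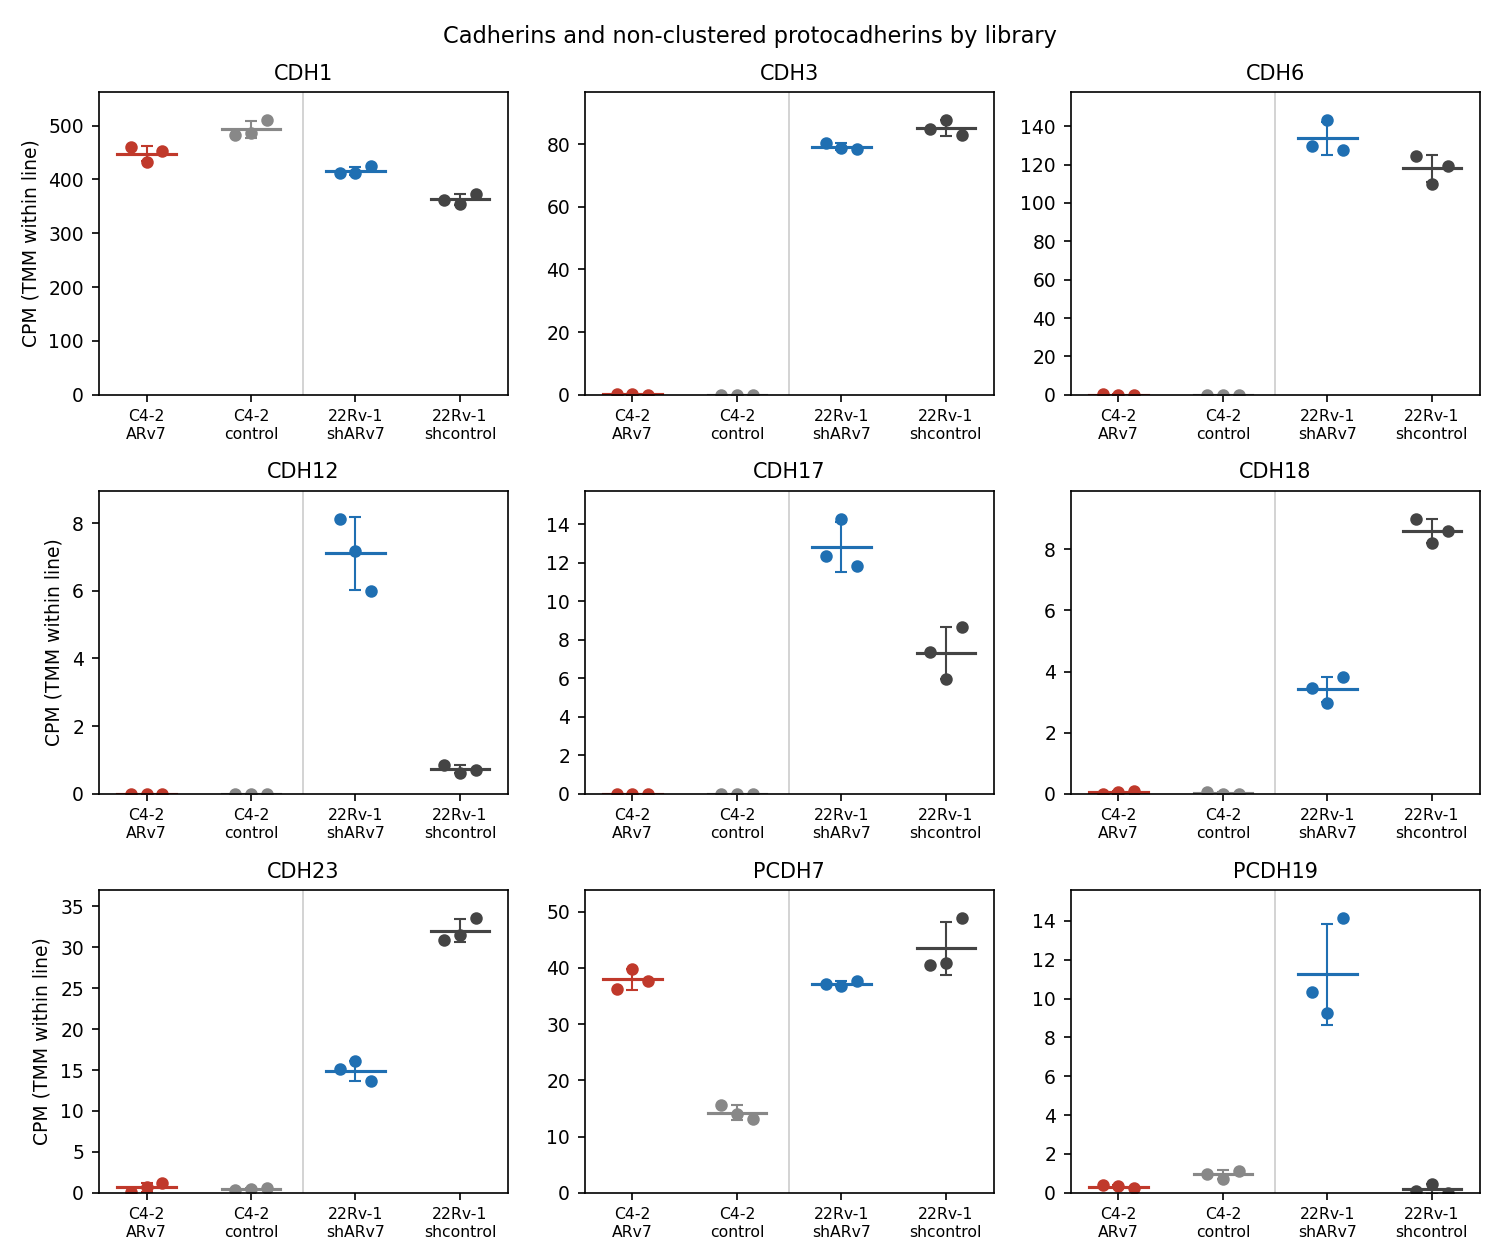
Level in CPM (linear axes, TMM-normalised within a cell line) of 9 cadherin and protocadherin genes in the 12 libraries, with points for libraries, a bar for the group mean and error bars for the SD. PCDH19, CDH12 and CDH17 are highest in 22Rv-1 shARv7, CDH18 and CDH23 in 22Rv-1 shcontrol, and PCDH7 in C4-2 is higher with ARv7.

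The clustered genes lie on chromosome 5, PCDHA from 140786136 to 141012347, PCDHB from 141051374 to 141249365 and PCDHG from 141330571 to 141512981. Summed over its 15 genes, PCDHA had 62.2, 69.2 and 76.2 CPM in 22Rv-1 shARv7, against 114, 114 and 112 CPM in 22Rv-1 shcontrol. Summed PCDHB had 122, 113 and 122 CPM in 22Rv-1 shARv7, against 203, 205 and 208 CPM in 22Rv-1 shcontrol. Summed PCDHG had 75.9, 81.7 and 76.1 CPM in 22Rv-1 shARv7, against 123, 115 and 115 CPM in 22Rv-1 shcontrol. In each cluster all depleted libraries were below all controls, and the ratio of the sums was 0.611 for PCDHA, 0.580 for PCDHB and 0.662 for PCDHG.

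**Figure D3:**
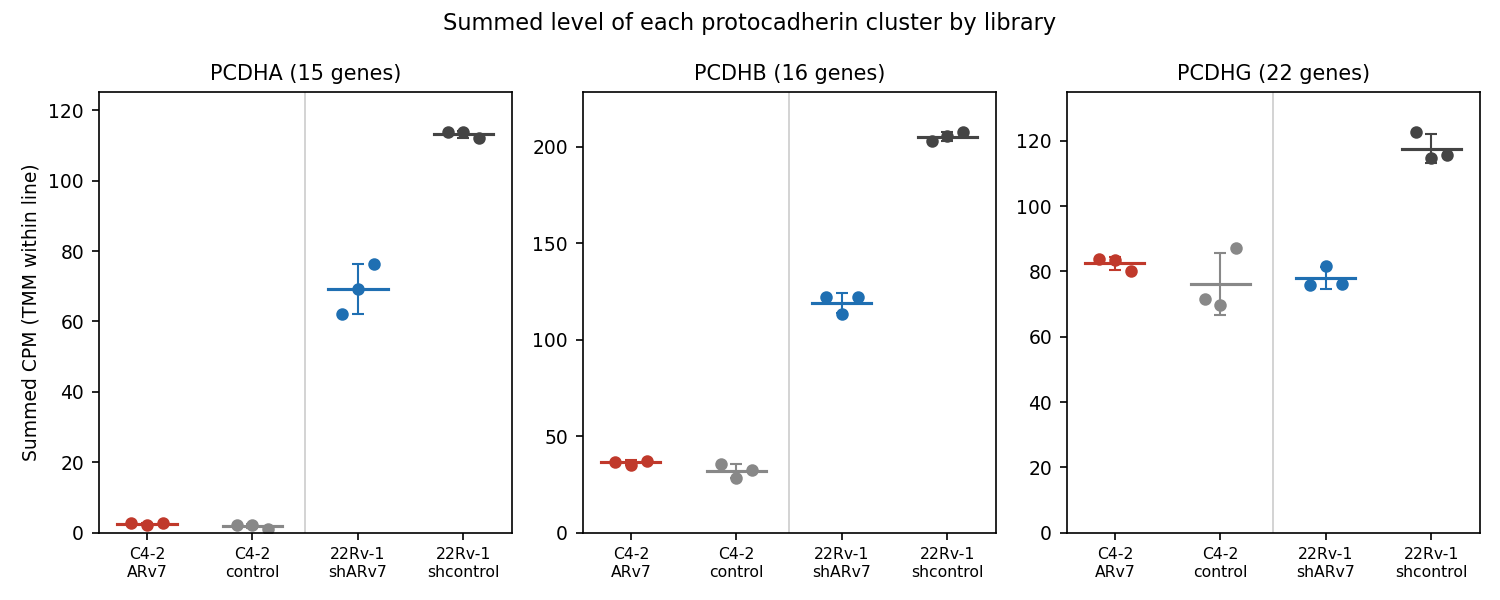
Summed level in CPM (TMM-normalised within a cell line) of the PCDHA, PCDHB and PCDHG genes in each of the 12 libraries, with points for libraries, a bar for the group mean and error bars for the SD. In 22Rv-1 the depleted libraries lie below the controls in each cluster, while the C4-2 libraries with and without ARv7 lie closer together.

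Of the 14 PCDHA genes tested, 10 fell. PCDHA6 had 1.73, 1.68 and 2.19 CPM in 22Rv-1 shARv7, against 4.40, 4.03 and 4.02 CPM in 22Rv-1 shcontrol, with the groups apart. Its log2 fold change of -1.14 ± 0.27 (SE; edgeR adjusted p = 0.000267) was the lowest of the cluster. PCDHA10 had 18.0, 20.5 and 22.8 CPM in 22Rv-1 shARv7, against 33.8, 32.9 and 30.9 CPM in 22Rv-1 shcontrol, again with no overlap, and a log2 fold change of -0.67 ± 0.10 (SE; edgeR adjusted p = 1.69e-08). The other falls had log2 fold changes of -1.08 for PCDHA11, -0.99 for PCDHA12, -0.89 for PCDHA3, -0.86 for PCDHA4, -0.79 for PCDHAC1, -0.76 for PCDHA5, -0.74 for PCDHA2 and -0.66 for PCDHA13. Without shcontrol library 3, PCDHA5 did not pass, at -0.67. PCDHA7, PCDHA8 and PCDHA9 did not pass, with log2 fold changes of -0.57, -0.42 and -0.86. PCDHAC2, the last promoter of the cluster and one of the C-type genes that many neurons express constitutively, had 6.03, 7.19 and 5.57 CPM in 22Rv-1 shARv7, against 6.81, 7.52 and 5.41 CPM in 22Rv-1 shcontrol. Its groups overlapped, and the log2 fold change was -0.07 ± 0.18 (SE; edgeR adjusted p = 0.781).

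Of the 16 PCDHB genes tested, 14 fell. PCDHB6 had 7.61, 9.79 and 9.03 CPM in 22Rv-1 shARv7, against 22.7, 22.2 and 25.6 CPM in 22Rv-1 shcontrol, with all depleted libraries far below. The log2 fold change was -1.42 ± 0.12 (SE; edgeR adjusted p = 9.23e-17). PCDHB16 had 3.54, 3.52 and 3.17 CPM in 22Rv-1 shARv7, against 9.72, 10.5 and 7.49 CPM in 22Rv-1 shcontrol, also apart, and a log2 fold change of -1.44 ± 0.19 (SE; edgeR adjusted p = 1.76e-09). PCDHB8 averaged 14.0 ± 0.842 CPM in 22Rv-1 shARv7 and 26.4 ± 1.54 CPM in 22Rv-1 shcontrol (SD, n = 3 each). The remaining log2 fold changes past the threshold were -1.02 for PCDHB5, -0.98 for PCDHB7, -0.94 for PCDHB9, -0.91 for PCDHB8, -0.72 for PCDHB10, -0.71 each for PCDHB4 and PCDHB13, -0.68 for PCDHB14, -0.63 for PCDHB11, -0.59 for PCDHB3, -0.54 for PCDHB2 and -0.40 for PCDHB15. PCDHB12 did not pass, with a log2 fold change of -0.40, nor did the low PCDHB1. Leaving out 1 library ended the call of PCDHB3 (-0.43 without shcontrol library 2, -0.60 without shcontrol library 3, -0.57 without shARv7 library 1 and -0.58 without shARv7 library 2). It also ended that of PCDHB9, at -0.95 without shcontrol library 1, -0.83 without shcontrol library 3 and -0.49 without shARv7 library 2.

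Of the 20 PCDHG genes tested, 14 fell: 10 of 11 PCDHGA genes, 3 of 6 PCDHGB genes and 1 of 3 PCDHGC genes. PCDHGA3 had 1.66, 1.99 and 2.68 CPM in 22Rv-1 shARv7, against 5.46, 3.95 and 5.27 CPM in 22Rv-1 shcontrol. The depleted libraries were all lower, and the log2 fold change was -1.21 ± 0.26 (SE; edgeR adjusted p = 5.93e-05). PCDHGB7 had 2.34, 2.52 and 2.61 CPM in 22Rv-1 shARv7, against 6.10, 5.89 and 5.20 CPM in 22Rv-1 shcontrol, a log2 fold change of -1.20 ± 0.23 (SE; edgeR adjusted p = 1.19e-05). PCDHGA10 averaged 8.70 ± 0.811 CPM in 22Rv-1 shARv7 and 15.6 ± 1.51 CPM in 22Rv-1 shcontrol (SD, n = 3 each), a log2 fold change of -0.84. Further falls had log2 fold changes of -1.12 for PCDHGC4, -0.97 for PCDHGA2, -0.82 for PCDHGB3, -0.77 for PCDHGA9, -0.76 for PCDHGA5, -0.72 for PCDHGA4, -0.70 for PCDHGA7, -0.68 for PCDHGA11, -0.66 for PCDHGB2, -0.52 for PCDHGA6 and -0.43 for PCDHGA1. Leaving out 1 library ended 5 of these calls. PCDHGA1 lost its call without shcontrol library 1 (-0.24) or any shARv7 library (-0.39, -0.48 and -0.43 without libraries 1, 2 and 3), PCDHGA4 without shcontrol library 2 (-0.65) or shARv7 library 1 (-0.47), and PCDHGB2 without shcontrol library 1 (-0.52), shARv7 library 1 (-0.58) or shARv7 library 2 (-0.53). PCDHGA7 lost its call without shcontrol library 1 (-0.68), shcontrol library 2 (-0.63) or shARv7 library 2 (-0.53), and PCDHGA11 without shcontrol library 1 (-0.60), shARv7 library 1 (-0.54) or shARv7 library 3 (-0.51).

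Not every PCDHG gene was lower. PCDHGC3 (141475947 to 141512977), a C-type gene that is also used outside neurons, had 11.5, 12.3 and 11.6 CPM in 22Rv-1 shARv7, against 13.1, 11.9 and 10.9 CPM in 22Rv-1 shcontrol. The groups overlapped, with a log2 fold change of -0.02 ± 0.13 (SE; edgeR adjusted p = 0.934). PCDHGB1 was the 1 clustered gene of 50 with a log2 fold change above 0, at 0.12 ± 0.36 (SE; edgeR adjusted p = 0.802). PCDHGB4, PCDHGA8, PCDHGB6 and PCDHGC5 did not pass either, at -0.24, -0.54, -0.11 and -0.95.

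**Figure D4:**
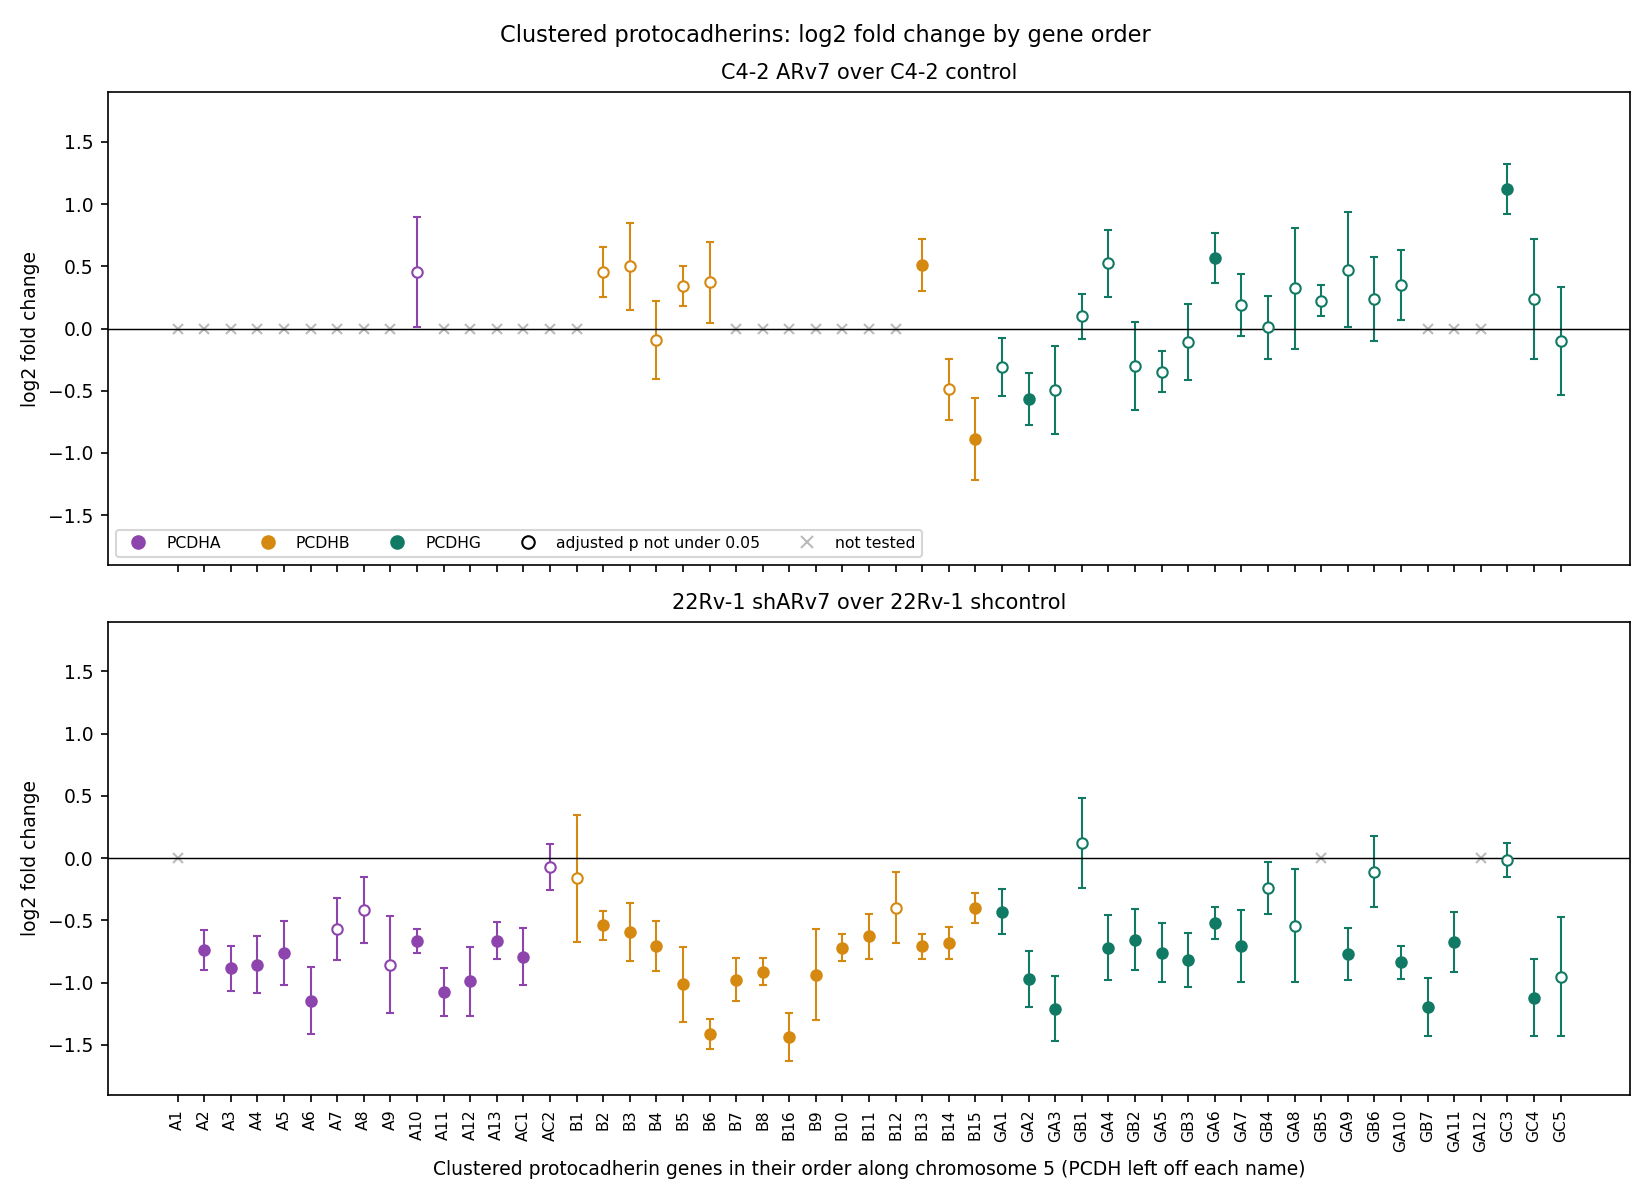
Log2 fold change with its SE for the 53 clustered protocadherins in gene order along chromosome 5, for C4-2 ARv7 over C4-2 control (top) and 22Rv-1 shARv7 over 22Rv-1 shcontrol (bottom), with filled points for adjusted p under 0.05 and crosses at 0 for genes not tested. In 22Rv-1, 49 of the 50 genes tested lie below 0, and in C4-2 the 28 genes tested lie on both sides.

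The gene models in the table limit what each PCDHA and PCDHG value can resolve. All 15 PCDHA models held at least 2866 exonic bases shared within the cluster, a median of 46.5% of the model, and all 22 PCDHG models held at least 2181, a median of 43.9%. PCDHA1 had 0 counts although its model holds the shared exons, so reads there were not counted to it. PCDHB models share no exonic base. The genes of a cluster resemble each other in sequence, and how reads that match several of them were counted is not stated in the labels, so single-gene values are less certain than the sums. TAF7, which lies between the PCDHB and PCDHG clusters, had a log2 fold change of -0.00 (edgeR adjusted p = 0.960), and of the genes next to the clusters, ZMAT2 was at -0.16 and did not pass, while DIAPH1 was at -0.21 and passed (edgeR adjusted p = 0.000146). Farther out before PCDHA, HARS2, HARS1 and WDR55 did not pass and IK passed, at 0.22. Farther out after PCDHG, RELL2 fell, at -0.32, and FCHSD1 rose, at 0.32, while HDAC3 and ARAP3 did not pass. Of the 41 genes with the box, 30 fell in 22Rv-1, 9 did not pass and 2 were not tested. Of the 6 with a promoter but without GNCGCT in that stretch, PCDHB5, PCDHB8, PCDHGB2 and PCDHGB7 fell, while PCDHA9 and PCDHAC2 did not pass. On either strand of the whole promoter, GNCGCT stood in 45 of the 47 clustered genes, so most of these 6 held it elsewhere.

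Of 21 genes listed as regulators of the clusters (CTCF, cohesin, DNA methyltransferases, histone modifiers), 14 fell in 22Rv-1 shARv7 and 1 rose, with a median log2 fold change of -0.23. Of all genes tested, 24.1% fell and 23.9% rose, with a median of 0.01. DNMT1, the maintenance DNA methyltransferase, had 206, 207 and 204 CPM in 22Rv-1 shARv7, against 343, 345 and 309 CPM in 22Rv-1 shcontrol, a log2 fold change of -0.69 (edgeR adjusted p = 5.86e-21). The cohesin genes SMC1A and STAG1 fell, at -0.51 and -0.55, the methyltransferase gene DNMT3A fell, at -0.43, and CTCF fell, at -0.29 (edgeR adjusted p = 3.34e-05). HDAC1, a histone deacetylase gene, rose, at 0.26. Their part in the protocadherin result was not tested.

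The summed level of 14 neural and neuroendocrine markers was 397 to 419 CPM in 22Rv-1 shARv7 and 654 to 719 CPM in 22Rv-1 shcontrol. Of the 8 tested, 4 fell (CHGA at -1.54, MAP2 at -0.79, ENO2 at -0.76 and SYP at -0.68), 1 rose (RBFOX3 at 1.05) and 3 did not pass, beside 24.1% of all genes tested that fell. The defining marker STMN2 had 0 counts in both groups. The part of these markers in the result was not tested. Summed fibroblast markers were 30.5 to 34.5 CPM in 22Rv-1 shARv7 and 46.3 to 48.5 CPM in 22Rv-1 shcontrol, and summed basal markers were 24.5 to 29.6 CPM in 22Rv-1 shARv7 and 14.2 to 14.8 CPM in 22Rv-1 shcontrol. Of 4 fibroblast markers tested, 2 rose and 2 fell. Of 7 basal markers tested, 5 rose and 1 fell, beside 23.9% of all genes tested that rose and 24.1% that fell. Endothelial markers summed to at most 4.90 CPM in 22Rv-1 shARv7 and 5.82 CPM in 22Rv-1 shcontrol, and immune markers to at most 14.4 CPM in 22Rv-1 shARv7 and 1.66 CPM in 22Rv-1 shcontrol.

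Partners of the cadherins in 22Rv-1 are read against the 23.9% of all genes tested that rose and the 24.1% that fell. Of 7 genes tested for desmosomal cadherins and plaque proteins, 6 rose, among them PKP2 at a log2 fold change of 1.41 and PERP at 0.59, and the other did not pass. Of 18 catenins and adherens junction partners, 5 rose and 5 fell. JUP (plakoglobin) rose, at 0.83, CTNNA1 (alpha-catenin) fell, at -0.53, and CTNNB1 (beta-catenin) did not pass. Of 14 other cadherin superfamily genes, 2 rose and 7 fell, with FAT1 at -0.88 and CELSR3 at -0.73. Among 17 epithelial and mesenchymal state genes, 10 rose and 1 fell. The tight junction gene CLDN4 rose, at 2.43, as did FN1 (fibronectin), a mesenchymal gene, at 3.52, while VIM (vimentin) fell, at -1.64. Of 14 regulators of that state, 5 rose and 5 fell, with the epithelial factors EHF at 2.15 and GRHL2 at 0.86 and the repressor SNAI2 at -0.72. Of 20 genes of cadherin processing, 4 rose and 6 fell, and of 19 protocadherin signalling partners, 4 rose and 5 fell. The share called among catenins, processing genes and signalling partners was thus close to the 48.0% of all genes.

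In C4-2 ARv7 against C4-2 control, fewer of these genes were called, and many had low counts there. Of 40 tested, 7 rose, 3 fell and 30 did not pass the threshold. Of all 12783 genes tested in C4-2, 59.1% passed, 29.6% higher and 29.5% lower. Among the 15 members with a mean of at least 5 CPM, 6 rose and 1 fell. Among the 12 that limma tested on FPKM, 7 rose and 0 fell (0 also at an unadjusted p under 0.05). FPKM divides by gene length and library total with no scaling factor, so limma shared the scaling of the total-count setting below. The share of all genes called in those settings is not given beside these counts. Whether few counts account for the low share among the 40 was not tested. With total counts and no scaling factor, 12 members rose and 0 fell (1 was lower at an unadjusted p under 0.05). That scaling put the median log2 fold change of all genes at 0.15, against 0.01 with TMM, and the share of higher calls at 67.2% of all calls, against 3781 of 7557 with TMM. Without C4-2 control library 3, which stood apart, 8 rose and 3 fell. Without ARv7 library 3, 4 rose and 0 fell, and 1 was lower at an unadjusted p under 0.05.

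CDH1 stayed the most abundant per length, with a mean of 77.2 FPKM in C4-2 ARv7 and 76.7 FPKM in C4-2 control. After TMM normalisation it had 459.8, 432 and 452 CPM in C4-2 ARv7, against 482, 486 and 511 CPM in C4-2 control. All ARv7 libraries lay below the controls, and the log2 fold change was -0.14 ± 0.06 (SE; edgeR adjusted p = 0.0389), but 0.01 with total counts and 0.01 with limma on FPKM, neither past the threshold. Without control library 2 (-0.15) or ARv7 library 1, 2 or 3 (-0.16, -0.11 and -0.14) the call was lost. CDH15 (M-cadherin, the type I cadherin of skeletal muscle; chromosome 16, 89171748 to 89195492) had 1.69, 2.25 and 2.24 CPM in C4-2 ARv7, against 0.425, 0.498 and 0.150 CPM in C4-2 control. It was low in every library but higher in all 3 with ARv7, at 88 counts against 15, a ratio of 6.27 with an exact 95% counting interval of 3.60 to 11.7. Its log2 fold change was 2.48 ± 0.43 (SE; edgeR adjusted p = 6.51e-05). CDH15 passed the filter on low counts through the ARv7 group alone. CDH7 had 1.36, 1.64 and 2.93 CPM in C4-2 ARv7, against 0.921, 1.42 and 0.975 CPM in C4-2 control, with overlap, and did not pass (edgeR adjusted p = 0.0696). CDH24 and CDH26 did not pass, with 8.32, 8.33 and 5.32 CPM in C4-2 ARv7 and 7.15, 6.34 and 6.07 CPM in C4-2 control for CDH24. CDH26 had 12.8, 12.1 and 12.6 CPM in C4-2 ARv7 and 11.1, 13.6 and 9.37 CPM in C4-2 control.

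PCDH7 had the smallest adjusted p of these genes in C4-2. It had 36.3, 39.9 and 37.6 CPM in C4-2 ARv7, against 15.7, 14.0 and 13.0 CPM in C4-2 control. Every ARv7 library was far above every control, and PCDH7 rose 2.66-fold, a log2 fold change of 1.41 ± 0.10 (SE; edgeR adjusted p = 4.07e-10). PCDH1 (chromosome 5, 141853090 to 141879246) had 28.9, 26.8 and 29.5 CPM in C4-2 ARv7, against 19.7, 19.4 and 21.3 CPM in C4-2 control. It rose with no overlap by 0.50 ± 0.10 on the log2 scale (SE; edgeR adjusted p = 0.000206). PCDH12, a vascular endothelial protocadherin, had 3.96, 3.62 and 3.78 CPM in C4-2 ARv7, against 2.20, 2.78 and 2.02 CPM in C4-2 control, and a log2 fold change of 0.70 ± 0.25 (SE; edgeR adjusted p = 0.0218). That call was lost without control library 1 (0.65), control library 3 (0.60), ARv7 library 1 (0.66) or ARv7 library 3 (0.70). Summed neural and neuroendocrine markers were 141 to 149 CPM in C4-2 ARv7 and 75.2 to 86.9 CPM in C4-2 control, and their part in these changes was not tested. Of the 3 tested singly, 1 rose and 2 fell, against the direction of the sum. Summed endothelial markers were 10.9 to 12.02 CPM in C4-2 ARv7 and 15.2 to 18.4 CPM in C4-2 control. Of the 4 endothelial markers tested, 2 rose and 2 fell. Of all genes tested in C4-2, 29.6% rose and 29.5% fell. PCDH19, not tested in C4-2, had 0.390, 0.341 and 0.231 CPM in C4-2 ARv7, against 0.991, 0.712 and 1.12 CPM in C4-2 control, a count ratio of 0.384 (exact 95% counting interval 0.192 to 0.722).

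Among 28 clustered genes tested in C4-2, 3 rose and 2 fell. PCDHGC3 had 7.60, 8.67 and 6.01 CPM in C4-2 ARv7, against 3.05, 3.49 and 3.75 CPM in C4-2 control, so that each ARv7 library was above each control. It rose 2.17-fold, a log2 fold change of 1.12 ± 0.20 (SE; edgeR adjusted p = 9.19e-05). PCDHGA6 had 6.56, 5.12 and 6.32 CPM in C4-2 ARv7, against 4.39, 3.49 and 4.27 CPM in C4-2 control, a log2 fold change of 0.57 ± 0.20 (SE; edgeR adjusted p = 0.0204). Its call was lost without control library 2 (0.47), ARv7 library 1 (0.49) or ARv7 library 3 (0.53). PCDHB13 had 7.54, 5.81 and 6.17 CPM in C4-2 ARv7, against 4.89, 3.35 and 5.55 CPM in C4-2 control, a log2 fold change of 0.51 ± 0.21 (SE; edgeR adjusted p = 0.0432) that did not pass without control library 2 (0.32), ARv7 library 1 (0.38) or ARv7 library 3 (0.54). PCDHGA2 had 3.70, 5.40 and 3.86 CPM in C4-2 ARv7, against 5.81, 7.69 and 5.70 CPM in C4-2 control, a log2 fold change of -0.57 ± 0.21 (SE; edgeR adjusted p = 0.0258), lost without control library 2 (-0.42), ARv7 library 1 (-0.46) or ARv7 library 3 (-0.49). PCDHB15 had 3.31, 1.64 and 1.54 CPM in C4-2 ARv7, against 4.46, 2.42 and 5.32 CPM in C4-2 control. Its groups overlapped, and the log2 fold change of -0.89 ± 0.33 (SE; edgeR adjusted p = 0.0254) lost its call without control library 1 (-0.82), control library 3 (-0.65), ARv7 library 2 (-0.71) or ARv7 library 3 (-0.70).

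Summed PCDHG had 83.8, 83.4 and 80.1 CPM in C4-2 ARv7, against 71.6, 69.7 and 87.0 CPM in C4-2 control. Library 3 of the control was the highest of the 6, and the groups overlapped. Summed PCDHB had 36.5, 35.3 and 37.4 CPM in C4-2 ARv7, against 35.5, 28.3 and 32.3 CPM in C4-2 control, also with overlap. PCDHA genes were close to the detection floor, with sums of 2.79, 2.32 and 2.70 CPM in C4-2 ARv7, against 2.20, 2.14 and 1.20 CPM in C4-2 control. PCDHA10 was the 1 PCDHA gene tested, with a log2 fold change of 0.45 that did not pass.

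The listed partners in C4-2 are read against the 29.6% of all genes tested that rose and the 29.5% that fell. In C4-2 ARv7, 5 catenins and adherens junction genes rose and 9 fell of 17, and of 9 desmosomal genes 3 rose and 4 fell. Of 19 epithelial and mesenchymal state genes, 4 rose and 10 fell, with CLDN4 at a log2 fold change of -2.42 and VIM at 2.78. Of 21 cluster regulators 5 rose and 6 fell, and CTCF fell, at -0.55 (edgeR adjusted p = 4.55e-07). Of 15 regulators of epithelial and mesenchymal state 5 rose and 5 fell, of 11 other cadherin superfamily genes 3 rose and 1 fell, of 18 processing genes 5 rose and 5 fell, and of 19 signalling partners 3 rose and 8 fell.

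Calls in both cell lines were held by 6 of the 89 genes. Of the 89, 49 were untested in C4-2 and 19 in 22Rv-1, and those could not hold both calls. Among all genes tested, 59.1% were called in C4-2 and 48.0% in 22Rv-1. The share of all genes called in both was not counted, so the 6 are listed without a reading of their number. PCDH7, PCDHB13 and PCDHGA6 rose in C4-2 ARv7 and fell in 22Rv-1 shARv7. CDH1 fell in C4-2 ARv7 and rose in 22Rv-1 shARv7. The C4-2 call was lost in 8 of 14 alternatives and turned in direction by 2 of them (total counts and limma on FPKM, both without a scaling factor). PCDHB15 and PCDHGA2 fell in both. Whether the response to more ARv7 differed between the lines was tested in 1 fit of all 12 libraries, as the change in C4-2 ARv7 over C4-2 control minus the change in 22Rv-1 shcontrol over 22Rv-1 shARv7. Of 74 members tested, 7 were higher in this difference and 8 lower. Of all 14235 genes tested, 50.7% passed, 27.4% higher and 23.3% lower. PCDH7, at 1.19 ± 0.13 on the log2 scale (SE; edgeR adjusted p = 1.53e-09), and PCDH19, at 4.48 ± 0.86 (SE; edgeR adjusted p = 4.11e-05), had the smallest adjusted p among the higher members. PCDHGA2, at -1.53 ± 0.31 (SE; edgeR adjusted p = 9.14e-05), had the smallest among the lower ones.

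The control groups differed in which members they used. Of 74 tested in 22Rv-1 shcontrol against C4-2 control, 56 were higher and 8 lower. Of all 14235 genes tested, 83.4% passed, 42.5% higher and 40.9% lower. The cell line and its control vector cannot be told apart here. All 14 PCDHA genes tested were higher in 22Rv-1 shcontrol, as were 15 of 16 PCDHB and 12 of 21 PCDHG genes. The filter on low counts kept 70 members in 22Rv-1 alone and 40 in C4-2 alone, among these 1 PCDHA and 8 PCDHB genes. Many members thus entered this test only through the line where they were higher, so their direction was largely set by the filter. On a scale common to all 12 libraries, the summed CPM in 22Rv-1 shcontrol was 57.4 times that in C4-2 control for PCDHA, 5.99 times for PCDHB and 1.44 times for PCDHG.

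Several members had at most 1 count in C4-2 control. Counts in 22Rv-1 shcontrol, against those in C4-2 control, were 4895 against 1 for CDH6, 3523 against 1 for CDH3, 357 against 1 for CDH18 and 306 against 0 for CDH17. Taking 3 counts per group as the floor, CDH17 was at least 106-fold higher in 22Rv-1 shcontrol, PCDHA2 at least 168-fold (487 counts against 0), PCDHA3 at least 132-fold (383 against 0), PCDHA11 at least 115-fold (334 against 0) and PCDH11X at least 98.2-fold (284 against 0). CDH6 and CDH3 had a mean of 9.32 and 13.8 FPKM in 22Rv-1 shcontrol. CDH23 had 1328 counts in 22Rv-1 shcontrol and 19 in C4-2 control, a ratio of 72.5 (exact 95% counting interval 46.2 to 121), and PCDH9, an adhesion protein of neurons, 970 and 9, a ratio of 112 (58.7 to 245). Intervals and floors cover counting error only.

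Fewer genes were lower in 22Rv-1 shcontrol. CDH26, a cadherin of the oesophageal epithelium in inflammation, had 0 counts in 22Rv-1 shcontrol and 473 in C4-2 control, at least 152-fold lower. PCDHGB5 had 0.213, 0.310 and 0.0694 CPM in 22Rv-1 shcontrol, against 15.4, 16.3 and 21.7 CPM in C4-2 control, each normalised within its line. It was the highest clustered gene of C4-2 control per length, at a mean of 3.48 FPKM, and 88.8 times lower in 22Rv-1 shcontrol by counts (8 against 737; exact 95% counting interval 44.8 to 206). CDH1 was lower, with a log2 fold change of -0.54 ± 0.05 (SE; edgeR adjusted p = 3.11e-12). PCDHGB1, PCDHB5 and PCDHGA5 were lower as well, at -1.99, -1.39 and -1.02 on the log2 scale, as were PCDH19, with 7 counts against 39, and CDH8, with 0 against 26.

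**Figure D5:**
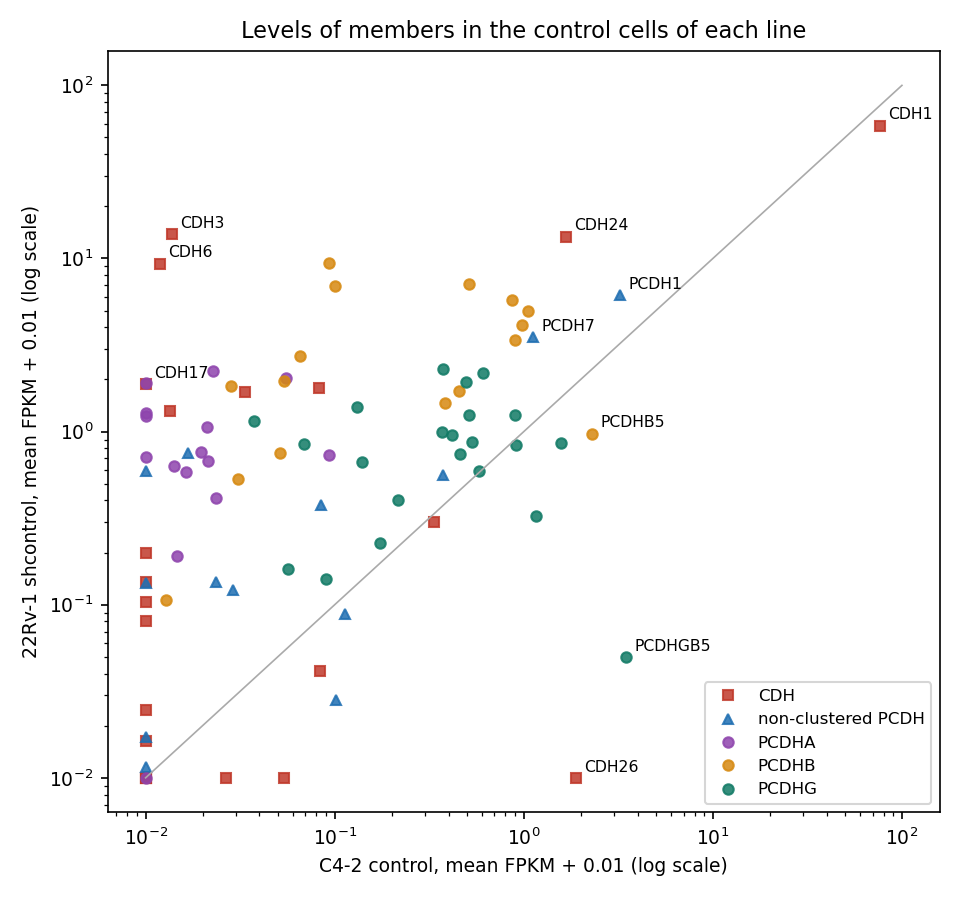
Mean level per gene in 22Rv-1 shcontrol (vertical) against C4-2 control (horizontal), in FPKM + 0.01 on log axes, for the cadherin and protocadherin genes by class. Most genes lie above the diagonal, CDH3 and CDH6 far above it, and CDH1 is the highest in both.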

How the data were processed

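RNA from 12 dishes was sequenced on a NovaSeq instrument, per the labels' protocols, and reads were trimmed with cutadapt 2.7, per the submitters' processing notes. Aligner, counter and strand setting: not given in the sources used here, so reads of overlapping or antisense genes could not be separated. The deposited table holds whole-number read counts per gene and FPKM, in which the authors divided counts by gene length and by the total; all values fell within 0.1% of that quotient. One line without a gene identifier was left out. Coordinates are those of the table and lie on GRCh38, since 88 of the 89 starts fell within 10000 bases of GENCODE 29, although the labels name hg18.

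Each cell line was fitted alone with edgeR 4.0.16 in R 4.3.3 (filterByExpr, TMM, quasi-likelihood F-test, Benjamini-Hochberg adjusted p under 0.05), and the difference between lines and the control comparison came from 1 fit of 12 libraries. Standard errors were the log2 fold change over the root of F. Count ratios used total counts, and a floor of 3 counts over a group stood for 0. Biological variation (BCV) came to 0.0655 for C4-2 and 0.0516 for 22Rv-1. Alternatives included DESeq2 1.42.0, edgeR with the size factors of DESeq2, total counts, no filter, a mean of at least 5 CPM, 1 fit of all libraries, a replicate block, limma 3.58.1 on log2(FPKM + 1) for genes averaging 1 FPKM or more, and each library left out. The fits were tested on simulated data. Members past the threshold in a cell line or with a group mean of at least 1 CPM were named, 72 in all. From each list, genes with the smallest adjusted p and those against the majority were taken. The members and lists were chosen with earlier results of these data known. The check of the targeted gene is not reported here.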

Additional observations from a re-analysis of the deposited data

Results flagged for a closer look

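The response to more ARv7, taken as C4-2 ARv7 over C4-2 control minus 22Rv-1 shcontrol over 22Rv-1 shARv7, differed between the cell lines in 15 genes by edgeR's quasi-likelihood test over all 12 libraries. Values are differences of log2 fold changes, with edgeR adjusted p. By edgeR, higher in C4-2 were PCDH19 at 4.48 (adjusted p = 4.11e-05), PCDH11X at 4.30 (adjusted p = 0.0236), CDH15 at 3.07 (adjusted p = 0.0130), PCDH7 at 1.19 (adjusted p = 1.53e-09), PCDHGC3 at 1.11 (adjusted p = 0.00016), PCDH12 at 1.05 (adjusted p = 0.0133) and PCDH1 at 0.34 (adjusted p = 0.0254). By edgeR, lower were PCDHGA3 at -1.70 (adjusted p = 0.00182), PCDHGA2 at -1.53 (adjusted p = 9.14e-05), PCDHB15 at -1.27 (adjusted p = 0.000913), PCDHB14 at -1.16 (adjusted p = 0.000206), PCDHGA5 at -1.10 (adjusted p = 0.00115), PCDHB6 at -1.04 (adjusted p = 0.00539), PCDHGB3 at -0.92 (adjusted p = 0.0391) and PCDHGA1 at -0.73 (adjusted p = 0.0444).

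PCDH19 was lower in the group with more ARv7 in both lines, and the difference is one of size. Its value was 6.49 without shcontrol library 2 and 3.89 without shcontrol library 3. PCDH11X rests on 6 counts in C4-2 ARv7 and 0 in C4-2 control, and its call was lost without C4-2 control library 2 (4.30), ARv7 library 2 (3.93) or ARv7 library 3 (3.86). The call of PCDH12 was lost without shARv7 library 1 (0.86), and that of PCDH1 without control library 2 (0.31), ARv7 library 1 (0.33), ARv7 library 3 (0.32) or shcontrol library 3 (0.30). PCDHGB3 lost its call without 1 of 7 libraries, at -0.69 without control library 1, -0.82 without control library 3, -0.81 without ARv7 library 2, -0.95 without ARv7 library 3, -0.79 without shcontrol library 3, -0.79 without shARv7 library 1 and -0.92 without shARv7 library 2. PCDHGA1 lost it without 1 of 8 libraries, at -0.45 to -0.78.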

How the results depend on the processing

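In C4-2, 7 members rose and 3 fell. The counts were 12 and 0 with total counts, 13 and 5 in 1 fit of 12 libraries, 1 lower at a mean of at least 5 CPM, 0 lower with limma (0 also at an unadjusted p under 0.05), and 4 to 8 higher and 0 to 3 lower with each library left out. CDH1 there reversed to 0.0098 with total counts and to 0.0090 with limma on FPKM, which both lack a scaling factor. In 22Rv-1, 5 rose and 42 fell: limma gave 3 and 20, and a mean of at least 5 CPM gave 24 lower. PCDHA falls numbered 10, against 5 at 5 CPM and 3 with limma, and PCDHG falls 14, against 4 and 3. Those settings tested fewer members, 15 and 12 in C4-2 and 35 and 30 in 22Rv-1. With a library left out, 4 to 6 rose and 37 to 42 fell, with 9 to 11 PCDHA, 12 to 14 PCDHB and 10 to 14 PCDHG falls. In the difference, 7 higher and 8 lower became 3 and 4 at 5 CPM, and between controls 56 and 8 became 21 and 5. Counting for each gene only the alternatives that tested it, 32 of the 42 falls and 4 of the 5 rises in 22Rv-1 kept their call, as did 4 of the 7 rises and 0 of the 3 falls in C4-2. The cause was not tested. DESeq2 did not call PCDHB3 (-0.60), PCDHB9 (-0.95), PCDHGA1 (-0.43) or PCDHGA7 (-0.71) in 22Rv-1. In the difference, PCDH1 lost its call with DESeq2 and with its size factors (0.29 each), and PCDHGA1 with total counts (-0.54), at 5 CPM (-0.70) and with the replicate block (-0.69).

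Total counts put the share of higher calls in the difference at 72.0%, against 54.0%. Same-numbered libraries did not deviate together (correlations -0.055 to 0.021), so the numbers do not pair them. With a replicate block, 7 members rose and 2 fell in C4-2, and 5 rose and 41 fell in 22Rv-1. The smaller FPKM pseudocount, meant for a table without counts, was not run. At this depth, 3 counts equal 0.204 to 0.244 CPM, which limits members near 0.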
